A study of Mus musculus with 9 samples.

Results

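The genes described here encode the eukaryotic translation initiation factors (eIFs) and were taken as every listed gene whose symbol begins with Eif1 to Eif6, without the Y-linked Eif2s3y. They number 72 of the 22322 genes listed. Of these, 54 are factors or direct regulators of factors, 16 are copies resembling the initiation factor eIF1A, and 2, Eif4a3l1 and Eif4a3l2, are copies resembling the helicase gene Eif4a3. Their messenger RNA was measured by RNA sequencing in mouse R1 cells, an embryonic stem cell line labelled wild type, that carried a short hairpin RNA against Pfkp (sh-Pfkp), a hairpin against Lin41 (sh-Lin41) or a control hairpin (sh-ctrl), with 3 libraries in each of these 3 groups. Pfkp encodes the platelet isoform of the glycolytic enzyme phosphofructokinase, and Lin41 is the RNA-binding protein encoded by Trim71. All 3 groups had been maintained on gelatin with leukaemia inhibitory factor (LIF) and then held in suspension for 6 days with LIF removed, which lets the cells aggregate into embryoid bodies. The series asked what loss of Pfkp or of Lin41 does to gene expression during this early differentiation. The labels name 1 hairpin per target and do not tell whether replicate libraries stem from separate cultures or clones, so the p-values below measure only how far these libraries scatter, which may be technical scatter.

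Translation initiation is the step in which the small ribosomal subunit, loaded with the initiator transfer RNA, finds the start codon of a messenger RNA. eIF2 brings the initiator transfer RNA with GTP, eIF1, eIF1A and eIF3 hold the small subunit open for scanning, and the eIF4F complex binds the 5′ cap and unwinds the leader. eIF5 and eIF5B act in GTP hydrolysis and in joining of the large subunit, while eIF2B recharges eIF2 and is held back when stress kinases phosphorylate the alpha subunit of eIF2. Embryonic stem cells are known for a low rate of protein synthesis that increases as they differentiate.

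Of the 72 genes, 62 passed the filter on low counts, among them 52 of the 54 factors, 8 of the 16 eIF1A-like copies and both Eif4a3-like copies. A gene was called when its adjusted p was under 0.05 in edgeR's quasi-likelihood test, with the Benjamini-Hochberg adjustment over the 13158 genes tested. So many genes passed in this series that a call alone says little: 56.6% of all tested genes were called in sh-Pfkp against sh-ctrl, 54.3% in sh-Lin41 against sh-ctrl and 55.1% in sh-Pfkp against sh-Lin41. In sh-Lin41 cells 36 of the 52 tested factors were lower than in sh-ctrl cells, 6 were higher and 10 were not called, whereas 27.3% of all tested genes were called lower and 26.9% higher. In sh-Pfkp cells 17 of the 52 were lower, 14 were higher and 21 were not called, against 28.3% lower and 28.3% higher among all tested genes. Both knockdowns share the same 3 control libraries. The direct comparison, which does not use them, found 37 of the 52 factors higher and 7 lower in sh-Pfkp relative to sh-Lin41, with 27.4% and 27.8% of all tested genes called in these directions. The median log2 fold change of the 52 factors was -0.14 in sh-Lin41 against sh-ctrl (0.004 over all tested genes), -0.003 in sh-Pfkp against sh-ctrl (-0.005 over all) and 0.17 in sh-Pfkp against sh-Lin41 (-0.013 over all). None of the 52 differed by more than 1 on the log2 scale in any of the 3 comparisons. Both Eif4a3-like copies and the 5 eIF1A-like copies that reached 10 counts in every control library did so in both knockdowns; the other 3 tested copies passed the filter only through the knockdown libraries.

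The hairpins lowered their own targets. Pfkp stood at 102, 101 and 105 CPM (counts scaled to library size) in the sh-Pfkp libraries and 248, 245 and 248 CPM in the sh-ctrl libraries (log2 fold change -1.27), and Trim71 at 165, 158 and 156 CPM in the sh-Lin41 libraries and 273, 264 and 269.7 CPM in the sh-ctrl libraries (-0.75). Trim71 was also higher in sh-Pfkp than in sh-ctrl (0.39), and Pfkp slightly lower in sh-Lin41 than in sh-ctrl (-0.12). Total counts ran between 15495194 and 20607683 per library. All 10 pluripotency markers averaged at least 179 CPM in every group. Of them, 7 were lower and 3 higher in sh-Pfkp than in sh-ctrl, and 6 were higher and 2 lower in sh-Lin41. Of 5 primitive streak and mesoderm markers, 4 averaged under 1 CPM in every group. The fifth streak marker, Eomes, averaged 10.4, 9.17 and 14.6 CPM in sh-Pfkp, sh-Lin41 and sh-ctrl. Of 5 neuroectoderm markers, 1 averaged under 1 CPM in each group. The highest average within each group, which need not belong to the same marker, was 19.995, 21.3 and 44.3 CPM in that order. Among the 4 tested, 2 were higher and 1 lower in sh-Pfkp than in sh-ctrl, and 1 was higher and 1 lower in sh-Lin41. No endoderm marker averaged more than 3.397 CPM in any group. The summed fibroblast markers were 23.2, 9.88 and 13.9 CPM in sh-Pfkp, sh-Lin41 and sh-ctrl, and their 6 tested members were split in sh-Pfkp against sh-ctrl, with Col1a1, Col1a2, Col3a1 and Dcn higher and Thy1 (log2 -0.996) and Pdgfrb (-1.68) lower. Of the 8 fibroblast markers, 5 averaged under 1 CPM in sh-ctrl, and Postn, Lum and Dcn were at 0 in sh-Lin41 and sh-ctrl. Tested markers near 0 in sh-ctrl, Dcn among them, passed the filter only through libraries where they are high. The filter thus fixed their direction. The part of all these markers in the results on the initiation factors was not tested.

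The eIF1A-like copies, which showed the largest changes, form a family on chromosome 12. By GENCODE release M21 (GRCm38) all 16 lie between positions 87494721 and 88324026, a stretch of 829.3 kb. The coding frames of the 16 copies were 95.6 to 100% identical to each other over 120 pairs (median 97.2%), 93.3 to 94.9% identical to Eif1a and 83.7 to 85.3% identical to Eif1ax. Several of these copies are used as markers of the 2-cell-like state, a rare condition of mouse embryonic stem cells in which transcripts of the 2-cell embryo appear. RefSeq promoters were found for few copies, and those of Eif1ad6, Eif1ad2 and Eif1ad19 are shown because these 3 shared a stretch of sequence upstream of their start sites. The 150 bases before each annotated start are printed 5′ to 3′ in the direction of transcription, from RefSeq on GRCm38.p6, with the 23-base run common to all 3 in capitals. Eif1ad6 is taken from chr12:87618759-87618908 on the plus strand, Eif1ad2 from chr12:87816427-87816576 on the plus strand and Eif1ad19 from chr12:87775756-87775905 on the minus strand.
Eif1ad6: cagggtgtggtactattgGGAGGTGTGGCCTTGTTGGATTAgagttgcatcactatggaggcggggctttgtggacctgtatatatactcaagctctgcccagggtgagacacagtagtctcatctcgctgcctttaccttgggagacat
Eif1ad2: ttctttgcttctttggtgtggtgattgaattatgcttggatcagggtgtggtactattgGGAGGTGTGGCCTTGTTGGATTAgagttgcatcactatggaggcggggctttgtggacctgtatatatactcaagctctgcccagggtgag
Eif1ad19: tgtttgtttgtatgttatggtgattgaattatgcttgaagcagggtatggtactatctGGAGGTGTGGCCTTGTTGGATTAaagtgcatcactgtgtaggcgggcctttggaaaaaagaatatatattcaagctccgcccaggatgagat
The RefSeq windows of Eif1ad6 and Eif1ad2 were 99.6% identical over 259 aligned bases, and each was less like that of Eif1ad19, at 76.6% over 256 and 75.1% over 289 aligned bases. The run ATATATA, read on either strand and picked after these sequences were seen, occurs in all 3. It starts 70, 29 and 31 bases before the RefSeq start of Eif1ad6, Eif1ad2 and Eif1ad19. It was found in the same 150-base window of 3 of the 5 eIF1A-like copies with a promoter in the table, 0 of 42 factors and 1.61% of 27025 genes. Because the run was picked from those 3 copies, their count was fixed by that choice and does not show enrichment. GENCODE starts Eif1ad6 at position 87618869, inside the printed window, so its last printed bases lie within the GENCODE gene and its distance of 70 depends on the annotation. The windows of Eif1ad2 and Eif1ad19 end next to their GENCODE starts (87816577 and 87775755).

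The 5 copies that reached 10 counts in every control library, Eif1ad3, Eif1ad6, Eif1ad7, Eif1ad8 and Eif1ad15, were higher in both knockdowns. Eif1ad3, which had the highest mean FPKM (a level scaled to library size and transcript length) of the copies, was at 17.3, 17.8 and 19.4 CPM in sh-Pfkp, 12.7, 13.8 and 13.4 CPM in sh-Lin41 and 2.92, 3.64 and 3.33 CPM in sh-ctrl libraries. The lowest knockdown library lay far above the highest control library, and the sh-Pfkp libraries lay above the sh-Lin41 libraries. Its log2 fold change was 2.46 ± 0.11 (SE) in sh-Pfkp (adjusted p = 1.71e-18) and 2.02 ± 0.12 in sh-Lin41 (adjusted p = 6.7e-16), and the difference between the knockdowns was 0.45 ± 0.085 (adjusted p = 4.28e-05). Eif1ad7 was at 15.4, 15.4 and 15.2 CPM in sh-Pfkp, 13.4, 12.1 and 13.5 CPM in sh-Lin41 and 3.83, 4.41 and 3.22 CPM in sh-ctrl libraries. These are 4.03-fold (log2 2.01 ± 0.11, adjusted p = 6e-16) and 3.41-fold (log2 1.77 ± 0.12, adjusted p = 1.98e-14) the control level. Between the knockdowns Eif1ad7 differed by 0.24 ± 0.090 (adjusted p = 0.024), a call that was lost without sh-Lin41 replicate 2 (adjusted p = 0.111) or sh-Pfkp replicate 1 (0.0513).

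Among the remaining tested copies the log2 fold changes in sh-Pfkp and sh-Lin41 against sh-ctrl were 2.62 and 2.38 for Eif1ad6, 2.24 and 2.08 for Eif1ad15, and 2.11 and 2.03 for Eif1ad8. Eif1ad10 (2.60 and 2.28), Eif1ad19 (2.90 and 2.40) and Eif1ad2 (2.04 and 2.25) reached 10 counts in only 1, 0 and 1 of the 3 control libraries, so they entered the test through the knockdown libraries where they are high, and their direction was fixed by the filter. Eif1ad2 and Eif1ad6 have identical coding frames, so a read from either can be counted for the other. Eif1ad2 had 64, 78 and 19 counts in the sh-Lin41 libraries, where Eif1ad6 had 166, 136 and 174. In sh-Lin41 the sum of the pair scattered less than either gene, at 230, 214 and 193 counts. The sum was 11.9 ± 1.36 CPM in sh-Pfkp, 10.8 ± 0.639 CPM in sh-Lin41 and 2.14 ± 0.392 CPM in sh-ctrl (SD, n = 3 each). In sh-Pfkp it scattered more than Eif1ad6 alone (9.60 ± 0.671 CPM). The part of shared reads in these values was not tested. The 8 copies that failed the filter had at most 7 counts in any library.

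Because the copies can share reads, the family is also given as a sum. All 16 together had 71.2, 67.7 and 68.9 CPM in sh-Pfkp libraries, 58.2, 57.0 and 58.7 CPM in sh-Lin41 libraries and 14.8, 14.7 and 12.6 CPM in sh-ctrl libraries. The 3 groups did not overlap, and the sums were 4.94 and 4.14 times the control level in sh-Pfkp and sh-Lin41. In bulk RNA, more cells in a state and more RNA per cell of that state cannot be told apart. A list of 14 genes of the 2-cell-like state, compiled after the copies' values were seen and so used for description only, summed to 67.1 ± 1.19 CPM in sh-Pfkp, 59.6 ± 2.00 CPM in sh-Lin41 and 13.3 ± 1.80 CPM in sh-ctrl (SD, n = 3 each). Among them Zscan4f, a zinc finger gene that marks this state, had 29.0, 27.02 and 26.3 CPM in sh-Pfkp, 27.2, 24.5 and 24.2 CPM in sh-Lin41 and 4.12, 3.64 and 5.40 CPM in sh-ctrl libraries.

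The Eif4a3-like copies moved in the same direction as the eIF1A-like ones and apart from Eif4a3 itself, the RNA helicase of the exon junction complex. Eif4a3l1 had 4.79, 6.36 and 7.51 CPM in sh-Pfkp, 5.52, 5.79 and 5.07 CPM in sh-Lin41 and 2.00, 1.73 and 2.40 CPM in sh-ctrl libraries (log2 fold changes 1.59 ± 0.18 and 1.41 ± 0.18, adjusted p = 5.01e-09 and 6.63e-08). Eif4a3l2 had 3.63, 3.08 and 4.13 CPM in sh-Pfkp, 2.91, 4.25 and 3.08 CPM in sh-Lin41 and 1.26, 1.09 and 0.982 CPM in sh-ctrl libraries, with log2 fold changes of 1.69 ± 0.23 and 1.62 ± 0.23 (adjusted p = 1.61e-07 and 3.58e-07). Eif4a3 had 157, 163 and 159.5 CPM in sh-Pfkp, 131, 129 and 137 CPM in sh-Lin41 and 152, 160.0 and 166 CPM in sh-ctrl libraries. It fell in sh-Lin41 (-0.27 ± 0.032, adjusted p = 9.16e-09) and was at 0.01 ± 0.031 in sh-Pfkp (adjusted p = 0.902). The coding frames of the 2 copies were 96.2% and 96.8% identical to that of Eif4a3, so reads can be shared among the 3 genes, and the part of this in the copies' values was not tested. In the authors' deposited table, 11 initiation factor genes in sh-Pfkp and 10 in sh-Lin41 passed a false discovery rate of 0.05 with a log2 fold change beyond 1, all of them higher and all of them copies. They include Eif1ad2, Eif1ad10 and Eif1ad19, which have few control counts. In sh-Pfkp they also include Eif1ad11, which failed the filter used here and had 0, 1 and 0 counts in the sh-ctrl libraries. The share of all genes past this threshold was not counted, so the 11 and 10 have no background here.

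**Figure D1:**
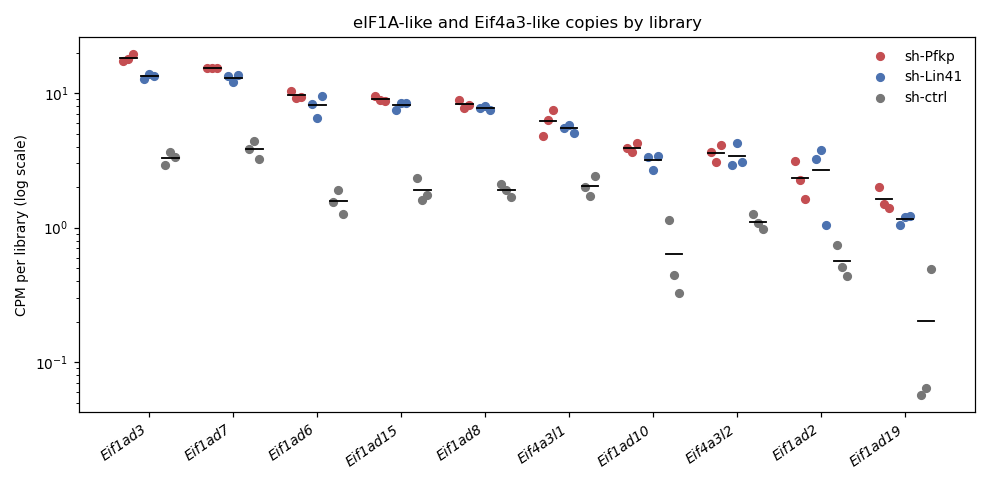
CPM on a log scale of the 8 tested eIF1A-like copies and the 2 Eif4a3-like copies in each library of sh-Pfkp (red), sh-Lin41 (blue) and sh-ctrl (grey); horizontal lines are means of 3 libraries. Each copy is higher in both knockdowns than in sh-ctrl, with Eif1ad3 at 17.3, 17.8 and 19.4 CPM in sh-Pfkp, 12.7, 13.8 and 13.4 in sh-Lin41 and 2.92, 3.64 and 3.33 in sh-ctrl. For Eif1ad10, Eif1ad19 and Eif1ad2 this direction was fixed by the filter, which they passed only through the knockdown libraries.

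The factors proper are abundant genes, and their levels set the scale for what follows. In sh-ctrl cells the median of the 52 tested factors was 102.5 FPKM, whereas the median over all tested genes was 8.44 FPKM. Eif4a1, the helicase of eIF4F, was highest at 1351 ± 16.4 FPKM (SD, n = 3), followed by Eif5a at 663 ± 4.44, Eif4g2 at 470.0 ± 6.64, Eif4g1 at 322 ± 3.26, Eif2s2 at 321 ± 5.23 and Eif4a2 at 314 ± 6.19 FPKM. Eif4g1, Eif2s2 and Eif4a2 lay within or close to each other's spread. Paralogues differed widely in level: Eif4a1 stood at 1351 FPKM and Eif4a2 at 314, Eif5a at 663 and Eif5a2 at 9.42, and Eif4g1 at 322 and Eif4g3 at 3.41. Of the cap-binding proteins, Eif4e and Eif4e2 were at similar levels (116 ± 6.25 and 115 ± 2.75 FPKM), while Eif4e3 was at 0.590 FPKM. The 4 kinases of eIF2 alpha were the least abundant group, between 5.95 and 13.4 FPKM. Subunits of eIF3 other than the low Eif3j1 (2.47 FPKM) lay between 86.4 and 252 FPKM.

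**Figure D2:**
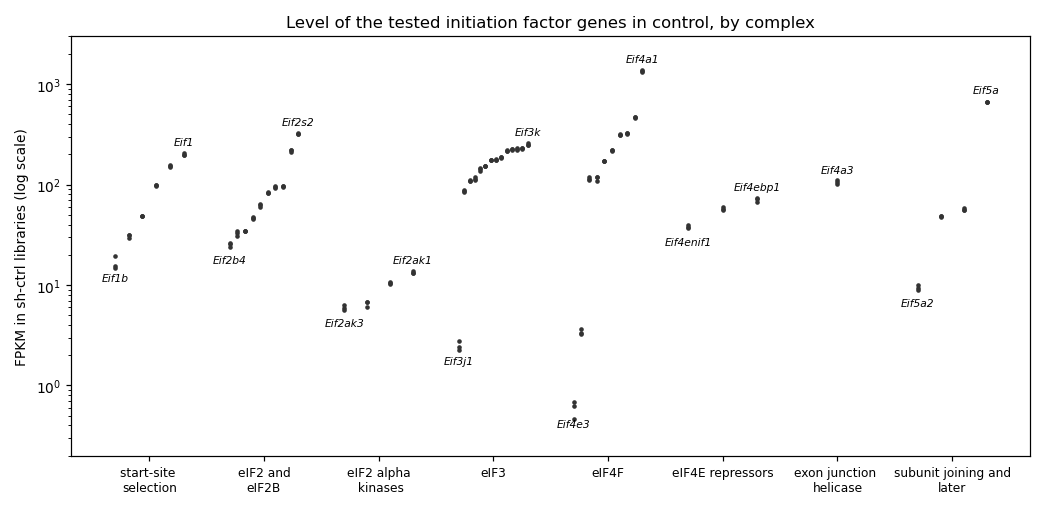
FPKM on a log scale of the 52 tested initiation factor genes in the 3 sh-ctrl libraries, grouped by complex; each column of points is 1 gene and the highest and lowest gene of a group are named. Eif4a1 is highest at 1351 FPKM and Eif4e3 lowest at 0.590 FPKM, and the 4 kinases lie between 5.95 and 13.4 FPKM.

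Together, all 54 factors took 1.85% of all counts in each sh-Pfkp library, 1.70 to 1.71% in the sh-Lin41 libraries and 1.88 to 1.91% in the sh-ctrl libraries. The 13 mitochondrially encoded messenger RNAs took a larger share in both knockdowns, at 6.65 to 6.86% in sh-Pfkp and 7.19 to 7.43% in sh-Lin41, against 5.15 to 5.32% in sh-ctrl. With the mitochondrial counts left out, the factors' share was 1.98 to 1.99% in sh-Pfkp, 1.83 to 1.85% in sh-Lin41 and 1.99 to 2.01% in sh-ctrl. The cause of these differences was not tested. Of 69 genes of cytosolic ribosomal proteins, 22 were lower and 20 higher in sh-Lin41 than in sh-ctrl (median log2 fold change -0.004), and 40 were lower and 6 higher in sh-Pfkp (median -0.082). The symbol pattern used for this set left out Rpl3, Rpl4, Rpl5, Rpl6, Rpl7, Rpl8 and Rpl9, so it is not complete. Over all tested genes, 27.3% were lower and 26.9% higher in sh-Lin41, and 28.3% went each way in sh-Pfkp.

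Among the genes grouped under scanning and start-site selection, 4 of 6 tested fell and 1 rose in sh-Lin41 (27.3% and 26.9% over all tested genes). Eif1ad, 1 of the 4, was placed in this group by its symbol, and its part in scanning was not examined. In sh-Pfkp 2 of the 6 rose and 1 fell (28.3% over all in each direction). Eif5, which encodes the protein that activates the GTPase of eIF2 at the start codon, gave the smallest adjusted p of these genes between the knockdowns. It had 562, 561 and 566 CPM in sh-Pfkp, 397, 412 and 402 CPM in sh-Lin41 and 500.4, 507 and 494 CPM in sh-ctrl libraries. No group overlapped another, and the control lay between the knockdowns. Eif5 was 1.12 times the control level in sh-Pfkp (log2 0.17 ± 0.019, adjusted p = 6.17e-09) and 0.806 times in sh-Lin41 (log2 -0.31 ± 0.020, adjusted p = 7.3e-15). The direct difference was 0.48 ± 0.019 (adjusted p = 9.34e-20). Eif1, whose product enforces start-codon fidelity and which was the most abundant of the group, had 255, 274 and 264 CPM in sh-Pfkp, 224, 222 and 229 CPM in sh-Lin41 and 254, 254 and 263 CPM in sh-ctrl libraries. It fell in sh-Lin41 (-0.19 ± 0.026, adjusted p = 1.88e-07) and was at 0.04 in sh-Pfkp, where the libraries overlapped those of sh-ctrl (adjusted p = 0.182).

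The 2 genes of eIF1A, the autosomal Eif1a and the X-linked Eif1ax, moved in opposite directions in sh-Pfkp. Eif1a had 299, 301 and 298 CPM in sh-Pfkp, 239.5, 244 and 251 CPM in sh-Lin41 and 246, 243 and 254 CPM in sh-ctrl libraries. It rose in sh-Pfkp (0.27 ± 0.023, adjusted p = 1.51e-11) and overlapped the control in sh-Lin41 (-0.02 ± 0.024, adjusted p = 0.568). Eif1ax had 206, 206 and 206 CPM in sh-Pfkp, 268, 267 and 267 CPM in sh-Lin41 and 250.03, 247 and 246 CPM in sh-ctrl libraries. It fell in sh-Pfkp (-0.27 ± 0.023, adjusted p = 1.06e-11) and rose in sh-Lin41 (0.11 ± 0.022, adjusted p = 0.000103), with a direct difference of -0.38 ± 0.022 (adjusted p = 1.75e-15). The copies on chromosome 12 are 93.3 to 94.9% identical to Eif1a, and all 16 together had a mean of 69.3 CPM in sh-Pfkp, 58.0 CPM in sh-Lin41 and 14.0 CPM in sh-ctrl; the part of shared reads in the values of Eif1a was not tested. Eif1ad (-0.11) and Eif1b (-0.25), a close relative of Eif1, fell in sh-Lin41. The call of Eif1ad was lost without sh-ctrl replicate 3 or sh-Lin41 replicate 1 (adjusted p = 0.0622 and 0.0664), and that of Eif1b without sh-ctrl replicate 2 (log2 -0.13, adjusted p = 0.253) or sh-Lin41 replicate 2 or 3 (0.058 and 0.0932).

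The genes of eIF2, eIF2B and eIF2A and eIF2D, which supply or replace the initiator transfer RNA, separated the knockdowns from each other: all 10 stood higher in sh-Pfkp, by 0.15 to 0.42 on the log2 scale over sh-Lin41. Over all tested genes, 27.4% were called higher between the knockdowns. Against sh-ctrl, 7 of the 10 rose and 1 fell in sh-Pfkp (28.3% over all in each direction). In sh-Lin41 1 rose and 5 fell (26.9% and 27.3% over all). Eif2s2, the beta subunit of eIF2 and the most abundant of these genes, had 908, 929 and 911 CPM in sh-Pfkp, 689, 691 and 668 CPM in sh-Lin41 and 782, 791 and 761 CPM in sh-ctrl libraries. The control again lay between the knockdowns with no overlap. Its log2 fold changes were 0.24 ± 0.018 in sh-Pfkp (adjusted p = 1.33e-12) and -0.19 ± 0.018 in sh-Lin41 (adjusted p = 2.86e-10), and 0.42 ± 0.018 between them (adjusted p = 5.53e-19).

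The other subunits of eIF2 did not follow Eif2s2 in sh-Pfkp. Eif2s1, the alpha subunit that stress kinases phosphorylate, had 315, 326 and 318 CPM in sh-Pfkp, 255, 257 and 263 CPM in sh-Lin41 and 309.5, 318 and 323 CPM in sh-ctrl libraries. It fell in sh-Lin41 (-0.29 ± 0.023, adjusted p = 1.43e-12) and overlapped the control in sh-Pfkp (0.02 ± 0.023, adjusted p = 0.57). Eif2s3x, the gamma subunit that binds GTP, had 734, 749 and 723 CPM in sh-Pfkp, 652, 660.1 and 654 CPM in sh-Lin41 and 768, 789.8 and 776 CPM in sh-ctrl libraries. It fell in both, with log2 fold changes of -0.08 ± 0.018 in sh-Pfkp (adjusted p = 0.000242) and -0.25 ± 0.018 in sh-Lin41 (adjusted p = 2.08e-13). All 3 subunits thus fell in sh-Lin41, while in sh-Pfkp 1 rose, 1 fell and 1 was not called.

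Of the 5 subunits of eIF2B, 4 rose in sh-Pfkp (28.3% over all tested genes) and 1, Eif2b4, fell in sh-Lin41 (27.3% over all). Eif2b1, the alpha subunit of this exchange factor, rose most, with 93.0, 98.8 and 88.3 CPM in sh-Pfkp, 73.1, 78.1 and 74.8 CPM in sh-Lin41 and 73.6, 70.8 and 77.4 CPM in sh-ctrl libraries (log2 0.34 ± 0.041 in sh-Pfkp, adjusted p = 2.85e-08; 0.03 in sh-Lin41). Eif2b5, the catalytic subunit, rose by 0.13 and was at -0.03 in sh-Lin41. Eif2b2 and Eif2b3 rose by 0.11 and 0.11 in sh-Pfkp, calls that were lost when single libraries were left out (sh-ctrl replicate 1 or 3 or sh-Pfkp replicate 1 or 3 for Eif2b2, adjusted p up to 0.125; sh-ctrl replicate 1 or 2 or sh-Pfkp replicate 2 for Eif2b3, up to 0.171). Eif2d, an alternative carrier of the initiator transfer RNA, had 146, 149.8 and 151 CPM in sh-Pfkp, 128, 133 and 134 CPM in sh-Lin41 and 119, 125 and 128 CPM in sh-ctrl libraries. It rose in sh-Pfkp (0.26 ± 0.031, adjusted p = 1.21e-08) and in sh-Lin41 (0.09 ± 0.031, adjusted p = 0.0187), where leaving out sh-ctrl replicate 1 gave 0.05 on the log2 scale (adjusted p = 0.189) and leaving out sh-Lin41 replicate 2 or 3 gave adjusted p = 0.0708 and 0.062. Eif2a rose in sh-Pfkp (0.13) and fell in sh-Lin41 (-0.14).

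The 4 kinases that phosphorylate eIF2 alpha each had their own pattern. Eif2ak1, the heme-regulated kinase, had 72.2, 68.7 and 68.4 CPM in sh-Pfkp, 67.1, 67.4 and 62.3 CPM in sh-Lin41 and 58.9, 57.0 and 56.6 CPM in sh-ctrl libraries, and rose in both knockdowns (0.28 ± 0.042 and 0.19 ± 0.042, adjusted p = 1.06e-06 and 0.000253). Eif2ak3, the kinase PERK of the endoplasmic reticulum, had 23.0, 23.8 and 26.9 CPM in sh-Pfkp, 33.3, 33.6 and 30.8 CPM in sh-Lin41 and 28.2, 25.1 and 26.3 CPM in sh-ctrl libraries. It rose in sh-Lin41 (0.30 ± 0.063, adjusted p = 0.000183), was at -0.12 in sh-Pfkp (adjusted p = 0.138; lower as a call with upper-quartile scaling, 0.0466, or without sh-Pfkp replicate 3, 0.0343) and differed between the knockdowns by -0.41 ± 0.063 (adjusted p = 1.44e-06). Eif2ak2, the double-stranded RNA kinase PKR, had 38.7, 39.1 and 37.8 CPM in sh-Pfkp, 41.9, 44.1 and 43.2 CPM in sh-Lin41 and 44.9, 45.5 and 43.2 CPM in sh-ctrl libraries. It fell in sh-Pfkp (-0.21 ± 0.047, adjusted p = 0.00041) and was at -0.05 in sh-Lin41 (adjusted p = 0.406). Eif2ak4, the amino acid sensor GCN2, fell, with log2 fold changes of -0.15 and -0.16, but the call in sh-Pfkp was lost without sh-ctrl replicate 2 or 3 or sh-Pfkp replicate 3 (adjusted p = 0.0653 to 0.123) and that in sh-Lin41 without sh-ctrl replicate 3 or sh-Lin41 replicate 3 (0.0859 and 0.0728).

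eIF3 is the largest factor, a scaffold on the small subunit, and its genes were mostly lower in sh-Lin41. There 11 of 14 fell (78.6%, against 27.3% of all tested genes), none rose and 3 were not called. In sh-Pfkp 3 rose, 4 fell and 7 were not called, so that 50% were called, against 56.6% of all tested genes. With upper-quartile scaling 2 rose and 7 fell in sh-Pfkp, with Eif3c, Eif3e and Eif3f added as lower (adjusted p = 0.0141, 0.0387 and 0.00144) and Eif3i lost (0.43). With limma on log2 FPKM values 1 rose and 4 fell there, with Eif3f again added as lower (0.00405). Over all genes, 41.9% of the calls in sh-Pfkp were higher with upper-quartile scaling and 39.9% with limma, in place of 49.9%. Between the knockdowns 12 of the 14 were higher in sh-Pfkp (27.4% over all tested genes), and the 2 others, Eif3k and Eif3j1, were not called. Eif3b, part of the core that binds the small subunit, had 522, 525 and 531 CPM in sh-Pfkp, 416, 407 and 416 CPM in sh-Lin41 and 512, 513 and 518 CPM in sh-ctrl libraries. The sh-Lin41 libraries lay well below all others, and the log2 fold change was -0.32 ± 0.019 in sh-Lin41 (adjusted p = 1.7e-15) and 0.03 ± 0.019 in sh-Pfkp (adjusted p = 0.142). The direct difference was 0.35 ± 0.019 (adjusted p = 1.44e-16).

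Eif3d, a subunit that can itself bind the cap of some messenger RNAs, had 259, 249.36 and 264 CPM in sh-Pfkp, 221, 222 and 221 CPM in sh-Lin41 and 284, 283 and 281 CPM in sh-ctrl libraries. It fell in both knockdowns, with log2 fold changes of -0.14 ± 0.023 in sh-Pfkp (adjusted p = 9.36e-06) and -0.35 ± 0.023 in sh-Lin41 (adjusted p = 3.19e-14). Eif3a, the largest core subunit, took the opposite course in sh-Pfkp, with 1050.3, 1037 and 1024 CPM in sh-Pfkp, 928, 969 and 941 CPM in sh-Lin41 and 939, 957 and 963 CPM in sh-ctrl libraries. It rose in sh-Pfkp (0.12 ± 0.018, adjusted p = 5.27e-07), and the sh-Lin41 libraries overlapped the control (-0.01 ± 0.018, adjusted p = 0.614). Eif3k, the most abundant eIF3 gene per length, had 180.1, 182 and 182 CPM in sh-Pfkp, 180.0, 177 and 174 CPM in sh-Lin41 and 189, 191 and 198 CPM in sh-ctrl libraries and fell, with log2 fold changes of -0.09 and -0.12 (adjusted p = 0.00419 and 0.000139); the call in sh-Pfkp was lost without sh-ctrl replicate 3 (adjusted p = 0.0629).

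In sh-Lin41 the other eIF3 genes that fell were Eif3m (-0.35), Eif3g (-0.22), Eif3e (-0.19), Eif3h (-0.19), Eif3f (-0.14), Eif3l (-0.14), Eif3j2 (-0.14) and Eif3c (-0.10). In sh-Pfkp, Eif3l (0.10) and Eif3i (0.06) also rose and Eif3m (-0.10) and Eif3h (-0.08) also fell. Of these, Eif3i lost its call without sh-ctrl replicate 3 or sh-Pfkp replicate 3 (adjusted p = 0.115 and 0.0583), and Eif3m without sh-ctrl replicate 1 or 3 or sh-Pfkp replicate 1 or 3 (0.0754 to 0.127). Eif3j1 and Eif3j2 have coding frames that are 99.7% identical and can exchange reads; together they had a mean of 223 ± 8.30 CPM in sh-Pfkp, 200.02 ± 6.13 CPM in sh-Lin41 and 217 ± 3.58 CPM in sh-ctrl (SD, n = 3 each).

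**Figure D3:**
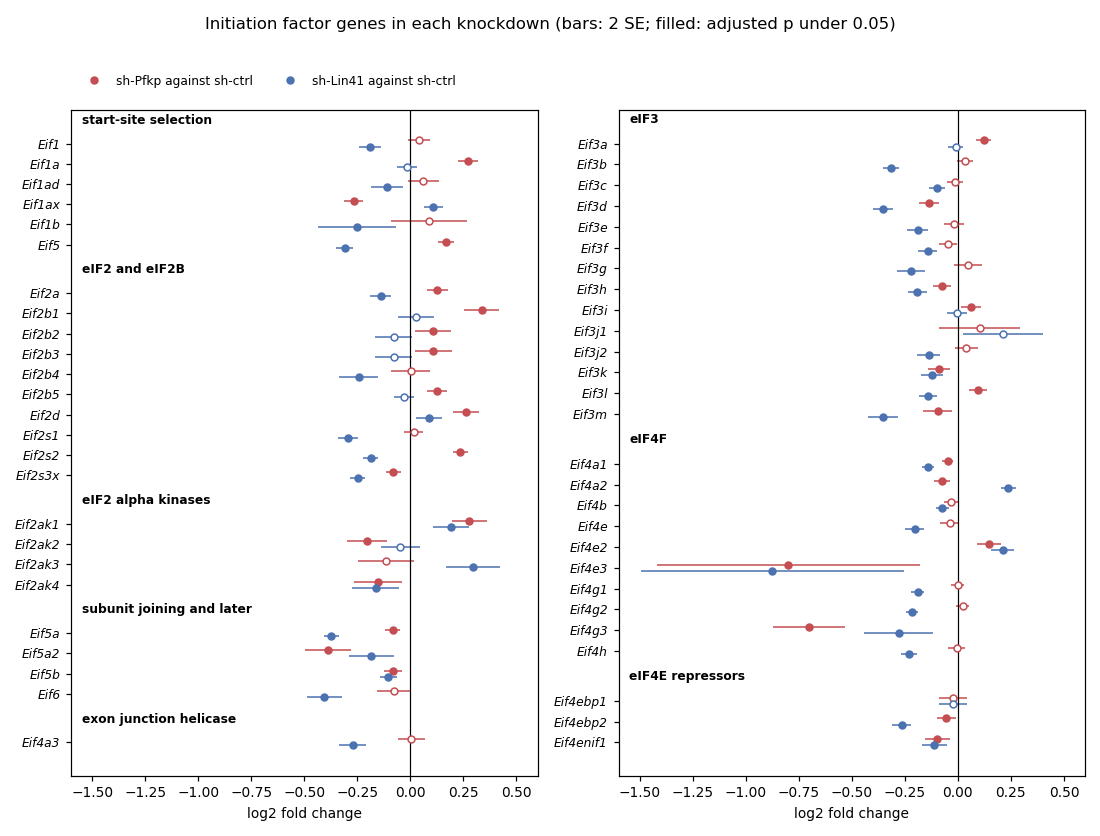
Log2 fold change against sh-ctrl of the 52 tested initiation factor genes in sh-Pfkp (red) and sh-Lin41 (blue), grouped by complex; bars span 2 SE on each side and filled points have an adjusted p under 0.05. In sh-Lin41, 36 genes lie left of 0 as calls and 6 right of it (27.3% and 26.9% over all tested genes). In sh-Pfkp, 17 and 14 do (28.3% over all in each direction).

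eIF4F recruits the messenger RNA through its cap, with Eif4e binding the cap, Eif4g1 and its relatives as the scaffold, and Eif4a1 and Eif4a2 as helicases assisted by Eif4b and Eif4h. All 10 tested genes of this group were called in sh-Lin41, 8 lower and 2 higher (27.3% and 26.9% over all tested genes). In sh-Pfkp 4 fell, 1 rose and 5 were not called, so that 50% were called, against 56.6% of all tested genes. The 2 helicases moved in opposite directions in sh-Lin41. Eif4a1 had 1935, 1944 and 1931 CPM in sh-Pfkp, 1809, 1818 and 1825 CPM in sh-Lin41 and 1997, 1992 and 2020.4 CPM in sh-ctrl libraries, and fell, with log2 fold changes of -0.05 ± 0.014 and -0.14 ± 0.014 (adjusted p = 0.00277 and 1.99e-10). Eif4a2 had 623, 625 and 614 CPM in sh-Pfkp, 762, 768 and 785 CPM in sh-Lin41 and 655, 644 and 663 CPM in sh-ctrl libraries. It rose in sh-Lin41 (0.24 ± 0.018, adjusted p = 6.4e-13), fell in sh-Pfkp (-0.08 ± 0.018, adjusted p = 0.000722) and differed between the knockdowns by -0.31 ± 0.018 (adjusted p = 7.75e-16). No group overlapped another for Eif4a2.

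Of the scaffolds, Eif4g3 gave the smallest adjusted p in sh-Pfkp, although it is expressed at a low level. It had 11.1, 11.4 and 11.9 CPM in sh-Pfkp, 15.7, 13.8 and 16.6 CPM in sh-Lin41 and 19.6, 18.6 and 17.7 CPM in sh-ctrl libraries. The 3 groups were apart, and the log2 fold change was -0.70 ± 0.086 in sh-Pfkp (adjusted p = 2.67e-08) and -0.28 ± 0.081 in sh-Lin41 (adjusted p = 0.00441). Eif4g2, a scaffold without the cap-binding partner site that serves cap-independent initiation, had 2159, 2109 and 2131 CPM in sh-Pfkp, 1779, 1814 and 1829 CPM in sh-Lin41 and 2073, 2125 and 2105 CPM in sh-ctrl libraries. It fell in sh-Lin41 (-0.22 ± 0.015, adjusted p = 5.4e-14) and overlapped the control in sh-Pfkp (0.02 ± 0.015, adjusted p = 0.21). Eif4g1 likewise fell in sh-Lin41 (-0.19), as did Eif4h (-0.23), Eif4e (-0.20) and Eif4b (-0.07). In sh-Pfkp these 4 were not called in the TMM-scaled test, but with upper-quartile scaling all 4 were called lower. With limma on log2 FPKM values Eif4g1, Eif4h and Eif4b were called lower there too (adjusted p = 0.0385, 0.00969 and 0.00581).

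Eif4e2, a cap-binding protein that does not join eIF4G and acts mainly as a repressor, rose in both knockdowns, in contrast to Eif4e. It had 167, 164 and 171 CPM in sh-Pfkp, 179, 172 and 172 CPM in sh-Lin41 and 148, 149.8 and 155 CPM in sh-ctrl libraries (log2 0.15 ± 0.028 and 0.21 ± 0.028, adjusted p = 3.79e-05 and 1.05e-07). Every knockdown library was above every control library. The call in sh-Pfkp was lost with log2 FPKM values in limma (adjusted p = 0.0773), and the small difference between the knockdowns (-0.06, adjusted p = 0.0494) was lost whichever of the 9 libraries was left out (0.0528 to 0.279). Eif4e3 was lower in both knockdowns (-0.80 ± 0.31 and -0.88 ± 0.31), but it had only 20, 15 and 12 counts in sh-Pfkp, 20, 12 and 15 counts in sh-Lin41 and 30, 18 and 28 counts in sh-ctrl libraries, and its calls were lost when sh-ctrl replicate 1 or 3 was left out (sh-Pfkp, adjusted p = 0.12 and 0.0776; sh-Lin41, 0.0842 and 0.0546), as well as without sh-Pfkp replicate 2 or 3 (0.0862 and 0.101) and without sh-Lin41 replicate 2 (0.0998).

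The repressors that bind eIF4E changed little in sh-Pfkp and partly in sh-Lin41. Eif4ebp1, the most abundant and a substrate of the kinase mTORC1, had 134, 138 and 141 CPM in sh-Pfkp, 144, 132 and 138 CPM in sh-Lin41 and 146, 133 and 141 CPM in sh-ctrl libraries, with overlapping groups and no call (-0.02 ± 0.033 and -0.02 ± 0.033, adjusted p = 0.549 and 0.565). Eif4ebp2 had 284, 279.8 and 281 CPM in sh-Pfkp, 244, 245 and 241 CPM in sh-Lin41 and 290.4, 292 and 294 CPM in sh-ctrl libraries. It fell in sh-Lin41 (-0.27 ± 0.022, adjusted p = 4.5e-12), whereas its change in sh-Pfkp (-0.05 ± 0.022, adjusted p = 0.0327) was lost when any library except sh-Lin41 replicate 2 was left out (adjusted p = 0.0541 to 0.129). Eif4enif1, the transporter that carries eIF4E into the nucleus, had 118, 120.3 and 118 CPM in sh-Pfkp, 117, 118 and 117 CPM in sh-Lin41 and 129, 124 and 128 CPM in sh-ctrl libraries and fell, with log2 fold changes of -0.10 ± 0.029 and -0.11 ± 0.029 (adjusted p = 0.00581 and 0.00175). Eif4ebp3, with at most 10 counts in a library, and Eif4e1b, with at most 3, did not pass the filter.

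The factors of subunit joining and the later steps fell in sh-Lin41 without exception among the 4 tested (27.3% over all tested genes). In sh-Pfkp 3 of the 4 fell (28.3% over all). Eif5a, which carries the hypusine modification and helps ribosomes through difficult peptide bonds, had 819, 834 and 821 CPM in sh-Pfkp, 697, 670.4 and 658 CPM in sh-Lin41 and 879, 872 and 871 CPM in sh-ctrl libraries. The groups were apart, and Eif5a was 0.944 times the control level in sh-Pfkp (log2 -0.08 ± 0.018, adjusted p = 0.000263) and 0.773 times in sh-Lin41 (log2 -0.37 ± 0.019, adjusted p = 1.88e-17). Its rarer paralogue Eif5a2 had 37.6, 33.8 and 36.0 CPM in sh-Pfkp, 38.6, 42.4 and 42.8 CPM in sh-Lin41 and 44.4, 46.1 and 49.97 CPM in sh-ctrl libraries. Eif5a2 showed the reverse order of the knockdowns, with -0.39 ± 0.055 in sh-Pfkp (adjusted p = 3.84e-07) and -0.18 ± 0.053 in sh-Lin41 (adjusted p = 0.00394), and it was lower in sh-Pfkp than in sh-Lin41 (-0.20 ± 0.055, adjusted p = 0.00213). The call in sh-Lin41 was lost without sh-ctrl replicate 3 (log2 -0.13, adjusted p = 0.062).

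Eif6, which keeps the large subunit from joining too early, had 75.1, 80.5 and 84.1 CPM in sh-Pfkp, 64.7, 64.6 and 61.1 CPM in sh-Lin41 and 85.9, 83.6 and 82.9 CPM in sh-ctrl libraries. It fell in sh-Lin41 (-0.41 ± 0.041, adjusted p = 4.36e-10) and was at -0.08 ± 0.040 in sh-Pfkp (adjusted p = 0.0985). The difference in sh-Pfkp became a call with upper-quartile scaling (adjusted p = 0.0134) and with limma on log2 FPKM values (0.0326). Leaving out sh-Pfkp replicate 3 also made it a call (log2 -0.11, adjusted p = 0.0318). Eif5b, the GTPase that joins the subunits, fell, with log2 fold changes of -0.08 in sh-Pfkp and -0.10 in sh-Lin41.

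**Figure D4:**
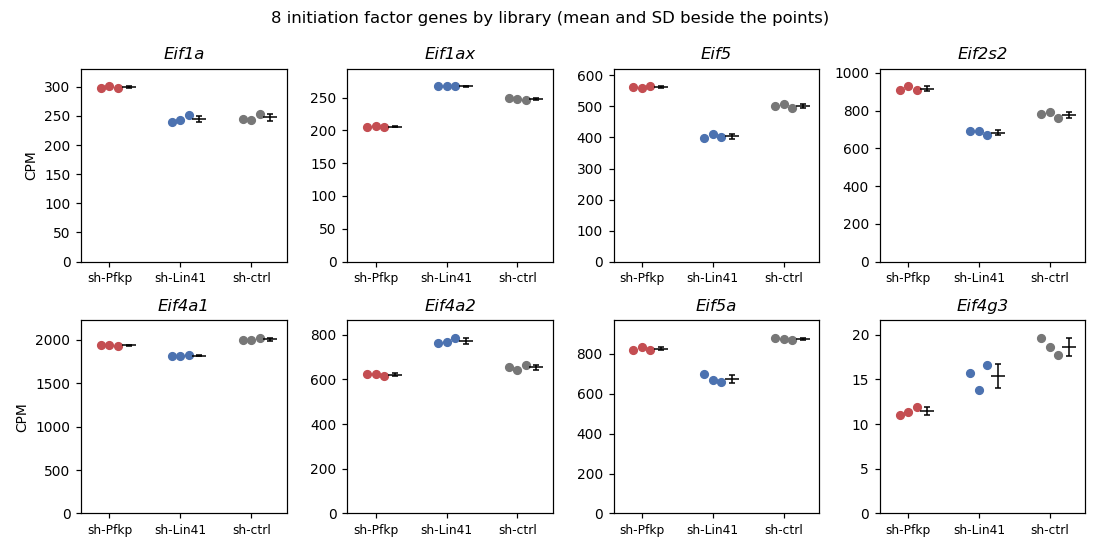
CPM of 8 initiation factor genes in each library of sh-Pfkp (red), sh-Lin41 (blue) and sh-ctrl (grey), with the mean and SD of 3 libraries beside the points; each axis starts at 0. Eif5 and Eif2s2 are above the control in sh-Pfkp and below it in sh-Lin41, Eif1ax and Eif4a2 are below it in sh-Pfkp and above it in sh-Lin41, and Eif5a and Eif4g3 are below it in both.

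Shares of all tested genes for calls in both knockdowns were not counted, so the numbers that follow have no background. Over the 2 knockdowns, 14 of the 52 tested factors fell in both and 3 rose in both. Another 4 rose in sh-Pfkp and fell in sh-Lin41, namely Eif2a, Eif2s2, Eif3l and Eif5, and 2, Eif1ax and Eif4a2, did the opposite. For these 6 the difference between the knockdowns was itself called, with log2 values of 0.27, 0.42, 0.24, 0.48, -0.38 and -0.31 in that order. A further 18 factors fell in sh-Lin41 and were not called in sh-Pfkp. With upper-quartile scaling 22 factors fell in both and 10 fell in sh-Lin41 without a call in sh-Pfkp. With limma on log2 FPKM values these counts were 16 and 15. Eif3l lost its call in sh-Pfkp with limma on log2 FPKM values (adjusted p = 0.0886). Both counts use the same control libraries, and for those 18 the missing call in sh-Pfkp does not show that they kept the control level.

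The genes around the factors were followed with 3 lists, whose counts stand against 27.3% lower and 26.9% higher among all tested genes in sh-Lin41 and 28.3% in each direction in sh-Pfkp; differences between the lists were not tested. Of 20 genes accessory to initiation, such as poly(A)-binding proteins and helicases, 13 fell and 4 rose in sh-Lin41, and 5 fell and 5 rose in sh-Pfkp (median log2 fold changes -0.15 and 0.034). Pabpc1, the main cytoplasmic poly(A)-binding protein and a partner of eIF4G, had 2639, 2591 and 2631 CPM in sh-Pfkp, 2239.6, 2257 and 2220.1 CPM in sh-Lin41 and 2675, 2717 and 2623 CPM in sh-ctrl libraries (log2 -0.25 in sh-Lin41, adjusted p = 3.72e-16). Pabpc4 (-0.32) and Larp1 (-0.23), which binds messenger RNAs of the translation machinery, also fell there. Ddx3x, a helicase for structured leaders, rose in sh-Pfkp (0.21) and fell in sh-Lin41 (-0.14). Impact, an inhibitor of the kinase GCN2, rose in both (0.39 and 0.27), and Bzw2, a mimic of eIF5, fell in both (-0.29 and -0.26).

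Of 15 elongation and termination factors tested, 6 fell and 5 rose in sh-Lin41, and 7 fell and 3 rose in sh-Pfkp (medians -0.043 and -0.057). Eef1a1, which delivers aminoacyl transfer RNAs, had 9614, 9781 and 9666 CPM in sh-Pfkp, 11081, 11048 and 11013 CPM in sh-Lin41 and 10944, 10812 and 10798 CPM in sh-ctrl libraries, and Eef2, the translocase, had 2771, 2739.9 and 2773 CPM in sh-Pfkp, 3108, 3113 and 3125 CPM in sh-Lin41 and 3051, 3012 and 3007 CPM in sh-ctrl libraries. Both fell in sh-Pfkp (-0.16 and -0.13) and rose slightly in sh-Lin41 (0.03 and 0.04). Eefsec, the selenocysteine elongation factor, fell in both (-0.47 and -0.17). The termination factor Gspt1 (-0.26), the recycling factor Abce1 (-0.21) and Eef1d (-0.26) fell in sh-Lin41.

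Of 17 genes of mTORC1 and MNK signalling, which control eIF4E and its repressors, 6 rose and 4 fell in sh-Pfkp and 6 rose and 5 fell in sh-Lin41 (medians 0.072 and 0.005). Ddit4, a stress-induced inhibitor of mTORC1, had 56.4, 57.6 and 58.2 CPM in sh-Pfkp, 45.7, 43.9 and 43.9 CPM in sh-Lin41 and 106, 102 and 100.0 CPM in sh-ctrl libraries. It fell in both, with log2 fold changes of -0.84 ± 0.037 in sh-Pfkp (adjusted p = 1.36e-18) and -1.20 ± 0.039 in sh-Lin41 (adjusted p = 2.86e-22). Rheb, the GTPase that activates mTORC1, had 71.0, 79.0 and 79.4 CPM in sh-Pfkp, 40.2, 43.7 and 41.5 CPM in sh-Lin41 and 72.5, 72.2 and 73.4 CPM in sh-ctrl libraries, and fell in sh-Lin41 (-0.80 ± 0.046, adjusted p = 8.25e-16), with 0.07 in sh-Pfkp (adjusted p = 0.152). The inhibitors Sesn2 (0.38 and 0.29), Tsc2 (0.27 and 0.24) and Akt1s1 (0.46 and 0.85) rose in sh-Pfkp and sh-Lin41.

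The factors' promoters were searched for the E-box CACGTG, which reads the same on both strands and is bound by MYC and related factors. Of 42 factors with a RefSeq promoter (250 bases before to 50 after the start), 10 held it (23.8%), compared with 0 of 6 copies and 8.09% of 27025 genes. The 10 are Eif1b, Eif3a, Eif3f, Eif3k, Eif4a1, Eif4e, Eif4g1, Eif4h, Eif5a and Eif5a2. They include Eif3a, which rose in sh-Pfkp, and Eif5a, which fell in both knockdowns. A match describes only the letters in this window.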

How the data were processed

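Total RNA from 9 libraries of mouse R1 cells was sequenced after extraction with Trizol and preparation with an NEBNext Ultra RNA kit, per the labels' protocols. Tools listed by the submitters' processing notes are RSEM, StringTie 1.3.1, HISAT2, Bowtie2 2.2.8 and fastp 0.18.0. The sources used here give neither their roles nor the genome build, the annotation and the use of strand, so reads of overlapping or antisense genes cannot be told apart. The authors deposited a count and an FPKM value per gene and library, with their own log2 fold changes, p-values and false discovery rates. The deposited counts are whole numbers and, since RSEM is named, may be rounded estimates. How reads shared by near-identical genes were assigned affects the copies most.

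Counts of all 9 libraries were fitted together with edgeR 4.0.16 in R 4.3.3 (TMM scaling, the filter filterByExpr by group, quasi-likelihood test, Benjamini-Hochberg adjustment over 13158 genes, threshold 0.05). CPM are the counts scaled to the TMM-adjusted library size, and FPKM served for levels between genes. A fold change is given as log2 with its SE, taken as its size over the square root of the F statistic. The procedure was tested on simulated data. Total counts of 15495194 to 20607683 per library limit the precision for genes with few counts. Same-numbered sh-Pfkp and sh-ctrl libraries deviated together from their group means (r = 0.105, 0.325 and 0.279), over a threshold of 0.1. Same-numbered sh-Lin41 libraries did not (0.0714, -0.17 and -0.139 with sh-ctrl, and 0.0184, -0.227 and -0.157 with sh-Pfkp). Some differently numbered libraries also passed 0.1, such as sh-Pfkp 2 with sh-Lin41 3 (0.283) and sh-ctrl 2 with sh-Lin41 3 (0.224). Whether the numbers pair libraries was thus not settled, and the labels do not say. The main fit used no pairing, and the replicate block applied the numbers to all 3 groups.

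Locations come from GENCODE release M21 on GRCm38, and promoters from RefSeq on GRCm38.p6. Proteins were not analysed here. Genes with per-library values were the 2 called members of each complex with the smallest adjusted p in each knockdown against sh-ctrl, the 1 with the smallest between the knockdowns and the member with the highest mean FPKM; up to 3 called members per related list and knockdown were named. Other members are given by their fold changes, and Eif2b1, Eif1ad2, Eif1ad6, Eif4e3 and Zscan4f were given per library after their values were seen. The members and lists were chosen with earlier results of these data known. Alternatives were size factors by RLE, upper-quartile scaling, DESeq2 1.42.0, limma-voom and limma-trend (limma 3.58.1) on log2(FPKM + 1), other filters, only the 6 libraries compared, the replicate block, and each library left out in turn.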

Additional observations from a re-analysis of the deposited data

How the results depend on the processing

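With the replicate number as a block, no call of the 62 tested members changed in any of the 3 comparisons, and 24 members were higher and 17 lower in sh-Pfkp against sh-ctrl, as without the block. In sh-Pfkp against sh-ctrl the counts depended on the scaling. Upper-quartile scaling moved the median log2 fold change of all genes by -0.039 and called 26 members lower (26 of the factors without copies) in place of 17. Of all calls with this scaling, 41.9% were in the higher direction, in place of 49.9%. Limma-trend on log2(FPKM + 1) moved it by -0.044, called 9 factors higher in place of 14, and put 39.9% of all calls in the higher direction in place of 49.9%. Eif4g1, with a fold of 1.00 in sh-Pfkp in the TMM-scaled test, came to -0.039 with upper-quartile scaling (adjusted p = 0.0233) and -0.049 with limma-trend (0.0385), and Eif4b between the knockdowns changed sign with limma-trend (-0.0011, adjusted p = 0.965). The cause of these shifts was not tested. In sh-Pfkp, upper-quartile scaling added Eif2ak3, Eif3c, Eif3e, Eif3f, Eif4b, Eif4e, Eif4g1, Eif4h and Eif6 as lower and ended the calls of Eif2b2, Eif2b3 and Eif3i. Limma-trend ended those of Eif2ak4, Eif2b2, Eif2b3, Eif3i, Eif3l, Eif3m and Eif4e2. It also added Eif3f, Eif4b, Eif4h and Eif6 as lower (adjusted p = 0.00405, 0.00581, 0.00969 and 0.0326), besides Eif4g1. In sh-Lin41 against sh-ctrl, upper-quartile scaling, RLE, limma-voom and the stricter filter changed no member's call, limma-trend ended the calls of Eif1b, Eif2ak4, Eif2d and Eif5a2 and added Eif2b2 as lower, and the test without a filter and that on the 6 libraries compared each added Eif3j1 as higher. Between the knockdowns, upper-quartile scaling ended the calls of Eif1ad7, Eif3i and Eif4b, and limma-trend also those of Eif3f and Eif4e2. DESeq2 ended 6 calls in sh-Pfkp (Eif2ak4, Eif2b2, Eif2b3, Eif3m, Eif4ebp2 and Eif4e3), 2 in sh-Lin41 (Eif2d and Eif4e3) and 2 between the knockdowns (Eif1ad7 and Eif4e2). Leaving out each library in turn gave 22 to 24 members higher and 12 to 17 lower in sh-Pfkp, 15 to 17 higher and 32 to 36 lower in sh-Lin41, and 37 to 40 higher and 6 to 7 lower between the knockdowns. Over all genes these fits called 3517 to 3871 higher and 3359 to 3679 lower in sh-Pfkp. In sh-Lin41 they called 3222 to 3576 higher and 3212 to 3653 lower. Between the knockdowns 3417 to 3732 were higher and 3283 to 3595 lower.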
